A study of Mus musculus with 30 samples.

Results

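The response of PKA knockout CD4 T cells to activation was taken from 6 of the 30 libraries of the series, 3 of naive KO cells and 3 of KO cells activated for 3 days, as the difference activated minus naive in one table of RNA-seq counts per gene. The table named 25865 gene symbols, of which 11980 had enough counts to be tested. The 6 matching libraries of WT cells in the same table (3 naive, 3 activated) gave the response against which it was set. The study asks how PKA signalling shapes activated CD4 T cells, with further libraries of open chromatin and of forskolin treatment that were not used here.

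All groups were CD4 T cells of mouse spleen and lymph nodes, enriched with an isolation kit and sorted as naive. Activation was with antibodies to CD3 and CD28. The groups differ by genotype (KO, labelled as a PKA knockout, or WT) and by state (naive or activated). The labels do not name the deleted PKA gene or the deleted exons. Strain, age, any Cre driver and the animals behind the libraries are not given either, so p-values measure only the spread between libraries, which may be technical.

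Protein kinase A (PKA) is held inactive by regulatory subunits that bind its catalytic subunits and let them go when cyclic AMP rises. In T cells the free kinase phosphorylates the transcription factor CREB and restrains signalling just below the T cell receptor (TCR), in part through the kinase Csk. A naive T cell triggered through CD3 and CD28 leaves quiescence, grows by building ribosomes and mitochondria, starts to divide and takes on effector functions.

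Levels are given as CPM (counts brought to the same library total, with TMM scaling between libraries) and are shares of the RNA of a library. Fewer cells of a type and less RNA per cell cannot be told apart in such bulk values, nor can a change in total RNA per cell be seen. Changes are log2 fold changes of activated over naive cells ± SE, tested with edgeR's quasi-likelihood test and called at a Benjamini-Hochberg adjusted p under 0.05. A difference between the KO and the WT response was tested as an interaction (KO response minus WT response) in the same fit. Because a p above the threshold does not show that responses are alike, the 95% interval of that difference was also read, and a gene was counted as bounded where the interval lay within 0.5 log2 on either side.

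Libraries held 8272201 to 11950488 counts in named genes, so 3 counts in 1 library were worth 0.236 to 0.398 CPM. The first principal component, with 92.2% of the variance, separated naive from activated libraries of both genotypes. The second, with 3.01%, separated activated KO from activated WT libraries. On that component activated WT replicate 1 lay farthest from its group, at 26.3 against 16.6 and 16.9. All 13 CD4 T cell identity genes were measured in KO cells, and their summed level was 7920.1 to 8959 CPM in naive and 3401 to 3460.3 CPM in activated libraries. CD8 T cell genes summed to 26.7 to 28.7 CPM in naive and 6.09 to 9.61 CPM in activated KO libraries.

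Prkaca (chr8:83972978-83996444), which encodes PKA catalytic subunit alpha, was low in every KO library and lower still after activation. It stood at 2.08, 2.55 and 2.65 CPM in the naive and 0.867, 1.38 and 0.926 CPM in the activated KO libraries, against 36.5 ± 4.46 and 47.9 ± 5.66 CPM in WT (mean ± SD, n = 3). The KO groups did not overlap, and the change was -1.20 ± 0.26 (adjusted p = 0.00041). In WT it was 0.38 ± 0.12 (adjusted p = 0.00547), and the responses differed by -1.58 ± 0.29 (adjusted p = 0.00286). The level of Prkaca fits the KO label in all 6 KO libraries, while reads from any exon left in place would count as well. Prkacb, the gene of catalytic subunit beta, fell from 120.2, 125 and 122 to 56.1, 53.9 and 55.03 CPM in KO (log2 fold change -1.15), with a WT change of -1.19 and an interval of the difference of -0.15 to 0.24. Of 7 measured PKA subunit and inhibitor genes 3 rose in KO (42.9%, against 42.3% of all genes tested). They were the inhibitor gene Pkig (3.37) and the regulatory subunit genes Prkar2a (1.10) and Prkar2b (1.56). The other 4 fell (57.1%, against 39.8% of all genes tested).

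With Prkaca this low, activation changed most of the transcriptome. In KO 9837 of 11980 genes (82.1%) passed the test, 5065 higher (42.3% of genes tested) and 4772 lower (39.8%). The median size of a called change was 1.12 log2, and 1019 genes rose and 354 fell by at least 8-fold. Between the 3 naive and the 3 activated KO libraries, 9692 of the called genes did not overlap (4998 higher, 41.7% of genes tested, and 4694 lower, 39.2%). In WT 9897 genes (82.6%) passed. The median change over all genes tested was 0.043 log2 in KO and 0.0349 in WT, which is the background for the list medians below. The shares of genes tested that rose and fell in KO are likewise the background for the list counts.

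Most genes responded in the same direction in KO and WT. Of the genes that rose in KO, 4699 also rose in WT (92.8% of the KO list and 92.7% of the WT list). Of those that fell in KO, 4448 also fell in WT (93.2% and 92.1%). Over the 11980 genes, the log2 changes of the 2 genotypes had a Pearson r of 0.957, given as a description across genes, which are not independent replicates and here share a fit. The responses differed in 443 genes (3.7% of genes tested), with 141 more positive (1.18%) and 302 more negative (2.52%) in KO. Under upper-quartile scaling that split was 192 to 257. Without activated KO replicate 2 the number was 290 (78 more positive), and without activated KO replicate 3 the more positive genes numbered 86. For 5307 genes (44.3%) the difference was bounded within 0.5 log2, and for 8887 (74.2%) within 1 log2.

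**Figure D1:**
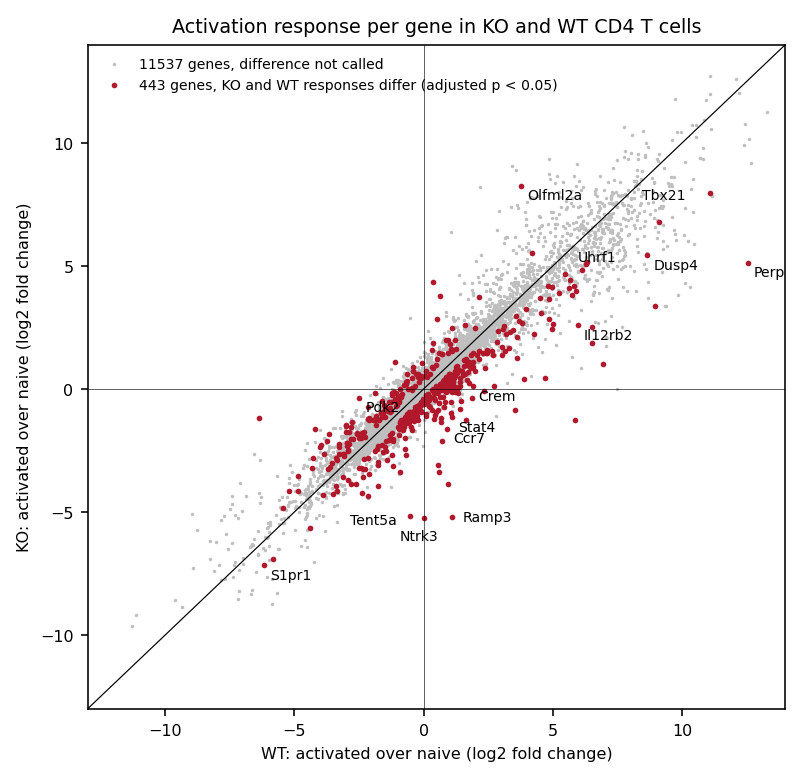
Log2 fold change of activated over naive cells for each of 11980 genes in WT (x axis) and KO (y axis). Grey points are genes whose responses were not called different, red points the 443 genes that were, and the diagonal marks equal change. Most points lie along the diagonal, with Ramp3, Tent5a and Ntrk3 far below it and Olfml2a above it.

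Genes of DNA replication rose together in activated KO cells. Of 41 tested members 40 rose and none fell, with a median of 2.72 (WT 2.66). No member's response was called different from WT, and 27 were bounded within 0.5 log2. Uhrf1 (chr17:56303337-56323486), which encodes the factor that brings DNA methyltransferase to newly copied DNA, stood at 7.27, 8.31 and 8.19 CPM in naive and 428, 444 and 416 CPM in activated KO libraries. Its groups lay far apart, with a log2 fold change of 5.76 ± 0.09 (adjusted p = 2.28e-18) and a WT change of 5.75. Lig1, the DNA ligase that joins Okazaki fragments, went from 22.5, 19.5 and 23.4 to 334, 349.9 and 338 CPM (3.97 ± 0.08). Clspn, which encodes the checkpoint adaptor claspin, went from 0.923, 1.22 and 0.922 to 88.9, 97.9 and 93.7 CPM (6.5 ± 0.12).

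Promoters of replication genes are known targets of E2F factors, and are shown because the members rose together. E2F motifs were searched as TTTCCCGC, TTTGGCGC and TTTCGCGC on both strands, in RefSeq windows of 300 bases (250 before to 50 after the start) of GRCm38.p6. For a gene with several windows only the first listed was searched. Of the 41 members 33 had a window, and 13 of these (39.4%) held a motif, against 3.84% of the 9352 tested genes with a window and 1.91% of all 27025 symbols. A match describes letters, not binding. The stretches below lie upstream of the start of the window searched, read 5′ to 3′ on the gene's strand with the motif in capitals. They were picked after values were seen, from members with a motif there and the smallest p. Pola1 and Rfc3 also met this rule and are not shown. In Mcm5 overlapping motifs share the capitals.
Cdc6 (chr11:98907983-98908050, plus strand): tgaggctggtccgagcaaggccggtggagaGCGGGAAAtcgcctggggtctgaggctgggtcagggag
Mcm7 (chr5:138172011-138172078, minus strand): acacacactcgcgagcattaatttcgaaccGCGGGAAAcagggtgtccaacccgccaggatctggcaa
Mcm5 (chr8:75109326-75109397, plus strand): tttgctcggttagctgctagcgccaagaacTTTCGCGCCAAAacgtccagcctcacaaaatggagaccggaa
Orc1 (chr4:108579397-108579453, plus strand): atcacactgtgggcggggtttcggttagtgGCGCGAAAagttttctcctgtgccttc
Cdc6 and Orc1 encode parts of the complex that loads the replicative helicase at origins, and Mcm5 and Mcm7 are subunits of that helicase. In activated KO cells their log2 fold changes were 6.70 for Cdc6, 2.55 for Mcm7, 3.52 for Mcm5 and 5.82 for Orc1, beside WT values of 7.13, 2.40, 3.31 and 5.77.

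Mitosis genes showed larger rises. Of 36 members 35 rose, with a median of 6.09 (WT 6.36). Only 8 were bounded within 0.5 log2 of WT (22.2%, against 44.3% of all genes tested). Aurkb, the mitotic kinase of the chromosomal passenger complex, was at 0.577, 0.665 and 0.692 CPM in naive and 150.4, 150.2 and 151 CPM in activated KO libraries (7.84 ± 0.12, adjusted p = 2.28e-18). Plk1, another mitotic kinase, reached 146, 153 and 151 CPM (6.45), and Tpx2, a spindle factor, reached 198, 207 and 194 CPM (7.30). Smc4, a condensin subunit, was the member that fell (-0.54). The interaction was called lower in 2 members. Mki67, the proliferation marker, rose from 5.42, 8.43 and 7.72 to 659.9, 653 and 633 CPM in KO (6.49). In WT it went from 4.89 ± 1.07 to 680 ± 11.1 CPM, so the activated levels lay close and the naive level was higher in KO on average. The Mki67 difference from WT (-0.65) had an adjusted p of 0.0579. It was called without naive KO replicate 1 (0.00848) or naive WT replicate 3 (0.0131), with DESeq2 (0.0124) or with no filter on low counts (0.0194).

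The brakes on the cell cycle moved in both directions. Among 25 cyclin, E2F and CDK inhibitor genes 19 rose and 5 fell, and the number that fell was 3 without naive KO replicate 3 or activated KO replicate 3. In 10 members the difference from WT was bounded (40%, against 44.3% of all genes tested). The transcription factor genes Mybl2 (6.66) and Foxm1 (4.59), which drive late cell cycle genes, rose. The quiescence factors Cdkn1b (-2.86), Cdkn2d (-1.76) and Rbl2 (-2.28) fell, and none of these 5 was called different from WT. Cdkn1a, the gene of the inhibitor p21, rose from 0.462, 0.554 and 0.807 to 167, 146 and 158 CPM in KO (7.98 ± 0.17), against 0.0751 ± 0.0681 to 185 ± 23.3 CPM in WT. Its log2 rise was smaller in KO (difference -3.11 ± 0.74, adjusted p = 0.0222), but the activated levels lay close. Most of the difference thus lay in the naive levels, under 1 CPM in both genotypes. The call was lost without naive KO replicate 3 (adjusted p = 0.101), naive WT replicate 1 (0.101) or naive WT replicate 2 (0.0661), and with DESeq2 (0.0519) or limma-voom (0.062).

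Nucleotide synthesis genes mostly rose. Of 28 members 23 rose and 4 fell, none with a called difference from WT and 21 bounded. The ribonucleotide reductase genes Rrm1 and Rrm2 rose by 3.74 ± 0.07 and 6.54 ± 0.14, and thymidine kinase Tk1 by 6.04 ± 0.15. The members that fell included Ctps2 (-1.55), Impdh1 (-0.89) and Prps2 (-0.56), each the paralog of a gene for the same enzymatic step. In the serine, one-carbon and polyamine list 16 of 18 members rose and none fell (median 2.42, WT 2.38). Shmt1, which moves one-carbon units from serine, went from 10.7, 10.2 and 9.22 to 173, 189.6 and 183 CPM, and Psat1, of serine synthesis, from 39.1, 37.5 and 33.3 to 535, 462 and 468 CPM.

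**Figure D2:**
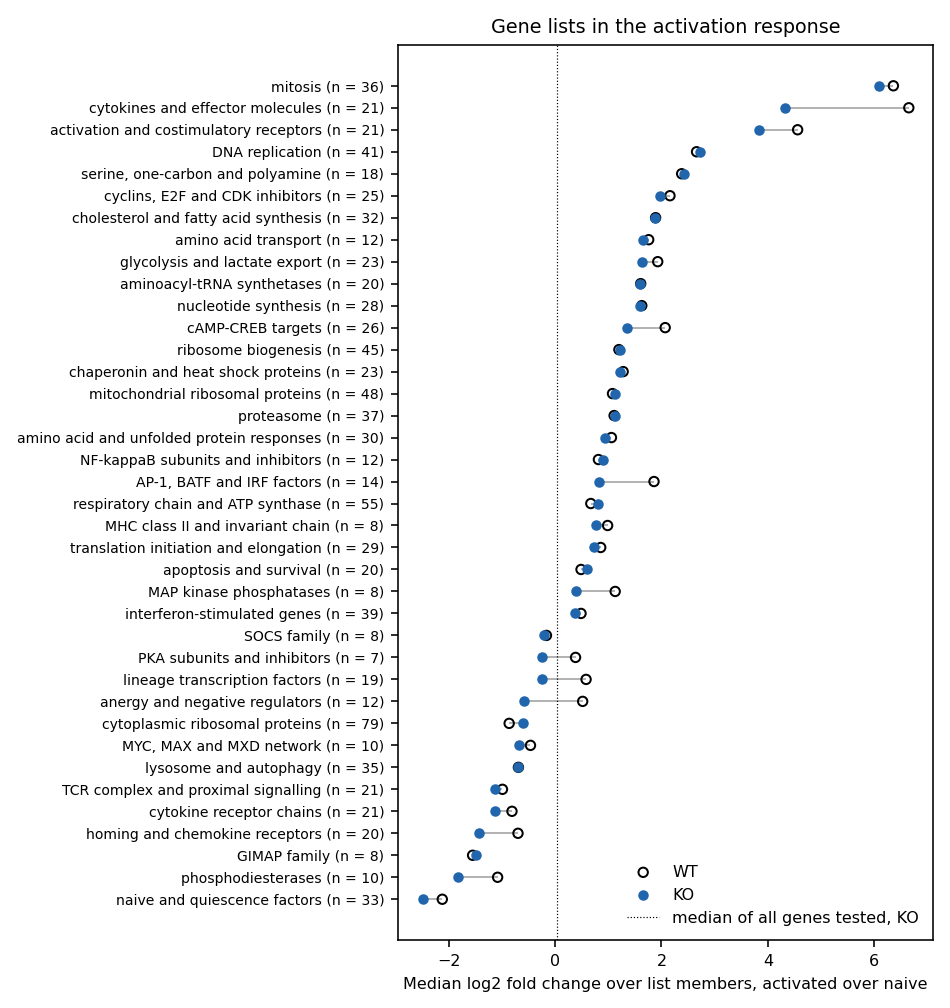
Median log2 fold change of activated over naive cells over the tested members of each gene list, for KO (filled) and WT (open), with the number of members. The dotted line is the KO median of all genes tested (0.043), and growth lists such as DNA replication and ribosome biogenesis show KO and WT medians close together.

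Ribosome biogenesis had the largest share of bounded members among the lists of at least 10 genes. In it 44 of 45 members rose and none fell, with a median of 1.23 (WT 1.20), and 44 of 45 were bounded within 0.5 log2 of WT. Ncl, the gene of the nucleolar protein nucleolin, went from 800.3, 821 and 787 CPM to 2977, 3152 and 3161 CPM in KO. Its change was 1.95 ± 0.06 (WT 1.96), with an interval of the difference of -0.20 to 0.17. Noc4l, of the small subunit processome, rose by 2.41, and Gnl3, the gene of nucleostemin, by 2.02.

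The mRNAs of the cytoplasmic ribosomal proteins went the other way. Of 79 members 66 fell and 3 rose, with a median of -0.59 in KO and -0.86 in WT. None was called different between the genotypes, and 33 were bounded (41.8%, against 44.3% of all genes tested). Rps16 was at 2917, 3502 and 3014 CPM in naive and 1364, 1394 and 1424 CPM in activated KO libraries (-1.17 ± 0.09), with no overlap. Rps2 (0.62), Rpl29 (0.21) and Rpl41 (0.44) were the members that rose, 6 rose without naive KO replicate 2 and 5 with DESeq2, and Rpl41 lost its call with no filter on low counts (0.0915) and without any 1 of naive KO replicates 1 and 3 or the activated libraries of either genotype (adjusted p 0.0555 to 0.128). Ribosomal protein genes have many processed copies, so how reads were shared among them could move these values.

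Translation factors and their supply rose. All 20 measured aminoacyl-tRNA synthetase genes, which charge tRNAs, rose (median 1.59, WT 1.61), and 18 were bounded. Among 29 initiation and elongation genes 21 rose and 4 fell. Eif5a, the hypusinated elongation factor, went from 474, 517 and 488 to 2029.9, 2199 and 2194 CPM (2.12). Pdcd4, an inhibitor of the helicase eIF4A, fell from 388, 467 and 453 to 84.6, 92.03 and 88.5 CPM (-2.30), and Eif4ebp2, an inhibitor of the cap-binding factor, fell as well (-0.82).

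Protein folding and turnover rose with translation. Of 37 proteasome genes 36 rose and none fell, 34 of them bounded, and the response of 1 member was called more positive in KO. Hspd1, the mitochondrial chaperonin, stood at 162, 159.98 and 153 CPM in naive and 1209.8, 1339.9 and 1291 CPM in activated KO libraries (3.01 ± 0.08). Of 23 chaperonin and heat shock genes 19 rose (82.6%, against 42.3% of all genes tested). The inducible members Dnajb1 (-1.47) and Hspa1b (-2.56) were lower, the latter with a call that was lost in 8 of the 12 fits that leave out a library (adjusted p = 0.184 without naive KO replicate 2, the highest of the naive values of 7.38, 21.5 and 4.38 CPM), and with limma-voom (0.0692) or no filter on low counts (0.0574). Both also belong to a list of dissociation and handling stress genes, in which 9 of 15 members rose (60%, against 42.3% of all genes tested).

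Mitochondrial genes rose. Of 48 mitochondrial ribosomal protein genes 47 rose and Mrpl24 fell (-0.56), with 40 bounded and none called different. Mrpl45 rose by 2.20 ± 0.08 and Mrps10 by 2.12 ± 0.09. In the respiratory chain and ATP synthase list 46 of 55 rose and 3 fell (median 0.81, WT 0.67). Those lower were Ndufa6 (-0.63), Uqcrh (-0.51) and Atp5h (-0.22). Uqcrh and Atp5h lost their calls without naive KO replicate 2 (adjusted p = 0.0885 and 0.0568) or activated KO replicate 1 (0.0848 and 0.0614), which left 1 member that fell, and Uqcrh also without naive KO replicate 3 (0.0501) or with no filter on low counts (0.0584).

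Sugar and lipid metabolism rose. Of 23 glycolysis and lactate export genes 19 rose and 1, Pdk1 (-1.42), fell, with 9 bounded (39.1%, against 44.3% of all genes tested). Hk2, the inducible hexokinase, went from 0.692, 0.443 and 0.346 CPM to 181, 163 and 161 CPM in KO (8.38 ± 0.18, WT 9.44, adjusted p of the difference 0.413). Tpi1, triose phosphate isomerase, reached 953, 894 and 981 CPM (4.14). Among 32 genes of cholesterol and fatty acid synthesis 31 rose and none fell, with a median of 1.88 (WT 1.89). Fads2, a fatty acid desaturase, was at 0.115, 0 and 0 CPM in naive and 96.6, 78.6 and 85.97 CPM in activated KO libraries. Cyp51, of sterol synthesis, rose by 2.72 and Pmvk, of the mevalonate pathway, by 2.99. The amino acid transporters Slc43a3 (5.79), Slc7a1 (1.70) and Slc1a5 (1.62) rose, among 11 of 12 in their list.

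**Figure D3:**
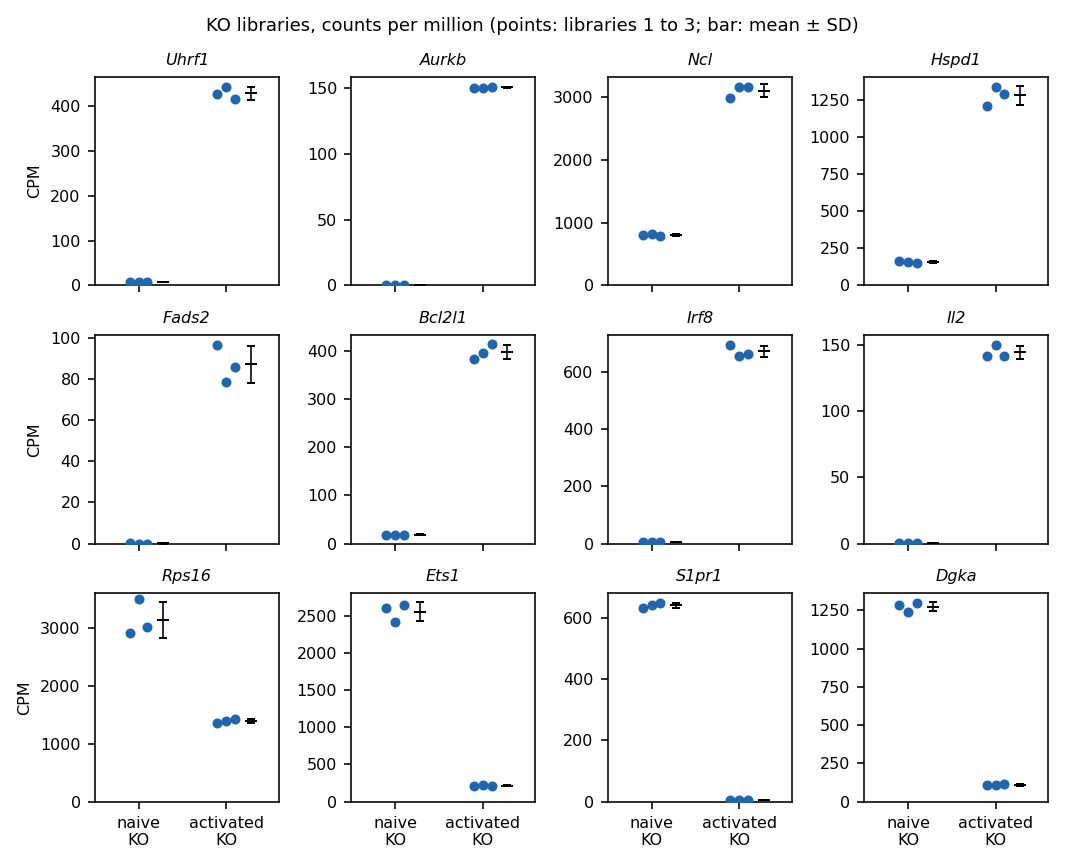
CPM of 12 genes in each naive and activated KO library (points) with the mean ± SD of 3 libraries beside them, each axis from 0. In every panel the naive and activated libraries lie apart, 8 genes higher and 4 (Rps16, Ets1, S1pr1, Dgka) lower after activation.

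Myc, the growth regulator, rose from 69.9, 77.5 and 74.4 to 390.1, 371 and 383 CPM in KO (2.37 ± 0.09). The rise was smaller than in WT (difference -0.5 ± 0.12, adjusted p = 0.0276), a call lost in 7 of the 12 fits that leave out a library (adjusted p up to 0.0871 without activated KO replicate 2; also without activated KO replicate 3, naive KO replicate 2 or 3, naive WT replicate 1 or 2, or activated WT replicate 1). In the MYC, MAX and MXD list 7 of 10 members fell (70%, against 39.8% of all genes tested), among them the MYC antagonist Mnt (-1.0), and Mxd3 rose (4.90).

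Genes of the naive, quiescent state fell. Of 33 members 31 fell and 1 rose, with a median of -2.49 (WT -2.12). The interaction was called in 9 (27.3%, against 3.7% of all genes tested), with 7 more negative and 2 more positive in KO. Satb1, a chromatin organizer of T cells, fell from 961, 841 and 911 to 66.2, 52.2 and 58.4 CPM in KO (-3.94 ± 0.10), against 1046 ± 80.1 to 306 ± 9.72 CPM in WT, a difference of -2.16 ± 0.12 (adjusted p = 4.62e-09). Ets1, a transcription factor of naive T cells, was at 2610.5, 2416 and 2651 CPM before and 206, 223 and 213 CPM after activation (-3.58, difference -0.48, adjusted p = 0.0057). Id3, an inhibitor of E proteins, was the member that rose (0.60). Ypel3 changed by -3.43 (WT -3.56). All 7 called GIMAP genes, which encode GTPases of lymphocyte survival, fell as well, led by Gimap6 (-2.72). Of the 8 GIMAP genes tested, 2 had a response called more positive in KO (25%, against 3.7% of all genes tested with a called interaction) and none more negative. Members of that family lie side by side and resemble each other, so reads may be split between them.

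Homing receptors mostly fell. In a list of 20 homing and chemokine receptors 12 fell (60%, against 39.8% of all genes tested) and 6 rose (30%, against 42.3%). S1pr1 (chr3:115710433-115715055), the receptor for exit from lymphoid organs, was at 634, 644 and 649 CPM in naive and 4.49, 4.43 and 4.45 CPM in activated KO libraries. The change of -7.17 ± 0.12 was larger than in WT (difference -1.0 ± 0.16, adjusted p = 0.000911). S1pr4 changed by -2.99 (WT -2.97), and the integrin chain gene Itgb7 changed by -2.71 against -3.06 in WT (adjusted p of the difference 0.0374). That difference was not called with the replicate block (0.055), and with single libraries left out it was called only without naive WT replicate 1 or 3 (0.0561 to 0.14 in the other 10 fits). Itgb1 (2.21) and the chemokine receptor gene Ccr4 (3.83) rose.

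TCR signalling genes were lower after activation in KO. Of 21 members 17 fell (81%, against 39.8% of all genes tested) and Lcp2, an adaptor, rose (0.45). The difference from WT was bounded in 12 (57.1%, against 44.3%) and called more negative in 4 (19%, against 3.7%). Txk, a Tec family kinase, went from 143, 122 and 128 to 5.20, 4.61 and 4.54 CPM (-4.77), and Plcg1, the phospholipase of the pathway, fell to 97.2, 92.8 and 87.5 CPM (-1.76). Among 12 genes of anergy and negative regulation Dgka, a kinase that removes diacylglycerol, went from 1281, 1239 and 1298 to 108, 105 and 113 CPM (-3.55 ± 0.08). Egr2, a factor induced by TCR signals, rose from 12.2, 13.5 and 19.4 to 58.1, 68.1 and 58.5 CPM (2.03, WT 1.77).

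Targets of cyclic AMP and CREB rose in part. The list was drawn up from known targets, with results of these data known. Of 26 members 16 rose (61.5%, against 42.3% of all genes tested), 3 fell (11.5%, against 39.8%) and 7 were not called. The median was 1.35 in KO and 2.07 in WT. The interaction was called in 11 members (42.3%, against 3.7% of all genes tested), each more negative in KO. The 3 members that fell, Pde3b, Pde4b and Pde4d, are among these 11 and are counted again in the phosphodiesterase list below. Dusp4, a MAP kinase phosphatase, rose from 1.04, 1.33 and 1.27 to 51.4, 55.7 and 53.4 CPM in KO (5.45 ± 0.13) and from 0.72 ± 0.0495 to 298 ± 21.7 CPM in WT, a difference of -3.21 ± 0.30 (adjusted p = 3.41e-06). Nr4a3, an orphan nuclear receptor, rose to 83.9, 89.4 and 83.9 CPM (3.66, difference -1.21). Crem, a CREB-related factor, was at 7.96, 8.09 and 6.69 CPM in naive and 9.37, 7.47 and 7.5 CPM in activated KO libraries. The Crem groups overlapped, the change of 0.10 ± 0.19 was not called (adjusted p = 0.629, and -0.01 without activated KO replicate 1), and it rose in WT by 1.89 ± 0.16 (difference -1.79, adjusted p = 0.000367). Egr1, an immediate early gene, changed by 1.29 in KO and 1.17 in WT, with an interval of the difference of -0.11 to 0.35.

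CREB binds the motif TGACGTCA and its core TGACG, which were searched on both strands, the full motif holding the core on each. Of the 26 members 18 had a promoter window, and 15 of these (83.3%) held the core, against 33.1% of tested genes and 21.0% of all symbols with a window. The full motif was in 2 (11.1%, against 3.43% and 1.88%). The stretches below, of members picked after values were seen for a core motif and a small p in the interaction, lie upstream of the start on the gene's strand, with motif letters in capitals.
Pde4b (chr4:102421491-102421554, plus strand): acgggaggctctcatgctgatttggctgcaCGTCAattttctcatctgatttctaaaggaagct
Nr4a3 (chr4:48045055-48045192, plus strand): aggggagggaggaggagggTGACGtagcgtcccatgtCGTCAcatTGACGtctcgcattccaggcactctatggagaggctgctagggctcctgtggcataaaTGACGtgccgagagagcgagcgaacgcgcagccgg
Dusp5 (chr19:53529060-53529124, plus strand): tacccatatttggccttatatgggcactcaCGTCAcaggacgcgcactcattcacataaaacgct
Dusp1 (chr17:26508578-26508693, minus strand): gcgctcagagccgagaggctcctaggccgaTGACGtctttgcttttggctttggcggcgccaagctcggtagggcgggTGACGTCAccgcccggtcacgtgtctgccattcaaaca
The window of Dusp1 held the full motif beside a lone core. Dusp1 and Dusp5 encode MAP kinase phosphatases. Their responses in KO differed from WT by -0.83 (adjusted p = 0.0493) and -1.28 (adjusted p = 0.0114). The Dusp1 difference was not called under upper-quartile scaling (0.0642), with limma-voom (0.0581), or in 9 of the 12 fits that leave out a library (0.0514 to 0.163), the exceptions being naive KO replicate 1, naive WT replicate 3 and activated WT replicate 1.

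Phosphodiesterases, which break down cyclic nucleotides, fell more than they rose. Of 10 members 7 fell (70%, against 39.8% of all genes tested) and 3 rose (30%, against 42.3%). The number that rose was 1 without activated KO replicate 1 or in the KO libraries alone. In 4 members (40%, against 3.7%) the response was called more negative in KO. Pde4d went from 66.5, 61.5 and 65.8 to 6.30, 5.72 and 6.48 CPM (-3.38 ± 0.18), while WT went from 125 ± 31.7 to 66.1 ± 2.0 CPM, a difference of -2.46 ± 0.22 (adjusted p = 1.45e-05). Pde4b (-2.97, difference -1.20) and Pde3b (-2.69, difference -1.45) fell further than in WT too. Pde2a, which cyclic GMP stimulates, fell from 112, 110.4 and 114 to 1.10, 1.01 and 0.741 CPM in KO (-6.85) beside a WT change of -6.98. Pde7a rose (1.54). The rises of Pde4a (2.45) and Pde5a (1.10) rest on levels of at most 2 CPM. Pde4a lost its call without activated KO replicate 1 (adjusted p = 0.0511). Pde5a lost it with the replicate block (0.0715), with DESeq2 (0.0893) or no filter on low counts (0.0624), and without naive KO replicate 1 (0.0879) or 2 (0.183), activated KO replicate 1 (0.108) or 2 (0.0798) or naive WT replicate 1 (0.0501).

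Factors downstream of the TCR and of CD28 were induced. Irf8, an interferon regulatory factor, stood at 5.65, 7.10 and 5.99 CPM in naive and 696, 658 and 663 CPM in activated KO libraries (6.75 ± 0.14, WT 7.03). Irf4, which scales with TCR signal strength, rose to 336, 336 and 324 CPM (5.08 ± 0.15), less than in WT (difference -1.21 ± 0.22, adjusted p = 0.00567). Of 12 NF-kappaB genes 9 rose (75%, against 42.3% of all genes tested) and 2 fell (16.7%, against 39.8%). Nfkb2 rose by 3.29 with no called difference (-0.20), whereas the rises of Nfkb1 (0.96, difference -0.81) and Rel (1.45, difference -1.0) were smaller than in WT (adjusted p = 1.01e-05 and 0.00067). Rela was lower (-0.32), and so was Bcl3 (-0.57), a call lost in the KO libraries alone (0.0563).

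Activation receptors rose strongly. Of 21 members 17 rose (81%, against 42.3% of all genes tested), with a median of 3.84 (WT 4.56). In 8 (38.1%, against 3.7%) the response was more negative in KO than in WT (called interaction). Tfrc, the transferrin receptor, went from 32.7, 28.05 and 29.1 to 867, 909.6 and 895 CPM (4.90 ± 0.09, WT 5.14), and Il2ra, the IL-2 receptor alpha chain, from 2.31, 2.22 and 3.23 to 653, 609 and 607 CPM (7.91 ± 0.14, WT 8.5). Neither difference was called. Tnfrsf4, the gene of OX40, rose to 230.02, 219 and 228 CPM (5.14), less than in WT (difference -1.18 ± 0.18, adjusted p = 0.000556). Ctla4, the inhibitory receptor of CD80 and CD86, rose to 34.3, 43.2 and 40.3 CPM (3.84), less than in WT (difference -1.92 ± 0.28, adjusted p = 0.000432). Cd27 (-2.06) and Cd28 (-1.01) fell. Cd69 was lower (-0.60, adjusted p = 0.0204), a call lost with the replicate block (0.106) and without naive KO replicate 2 (0.0592) or 3 (0.0689) or activated KO replicate 2 (0.0665) or 3 (0.057).

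Cytokine receptors split. Of 21 chains 7 rose (33.3%, against 42.3% of all genes tested) and 13 fell (61.9%, against 39.8%). Il2rb rose from 33.00, 31.6 and 41.8 to 240.3, 240.4 and 236 CPM (2.75, difference -0.95, adjusted p = 0.000895). Il6ra changed by -4.15 and Tgfbr2 by -3.95, the first a smaller loss (0.71) and the second a larger one (-0.55) than in WT. The Tgfbr2 difference (adjusted p = 0.0121) was not called without activated KO replicate 3 (0.0504). Il12rb1, the shared chain of the IL-12 and IL-23 receptors, rose from 8.54, 4.88 and 6.57 to 242, 221 and 206 CPM (5.07 ± 0.13). Its difference from WT of -0.81 ± 0.22 had an adjusted p of 0.0502, and was called with the replicate block (0.0191 within and 0.0121 across genotypes), with RLE scaling (0.0459), DESeq2 (0.0106) or no filter on low counts (0.0206), without naive KO replicate 2 (0.00795) or without activated KO replicate 1 (0.0403). In WT Il12rb1 went from 3.88 ± 0.574 to 229 ± 17.3 CPM, so the activated levels lay close and the naive level was higher in KO on average. Il12rb2, the second IL-12 receptor chain, rose from 1.15, 0.443 and 1.04 to 5.44, 5.16 and 5.28 CPM (2.58 ± 0.43). In WT Il12rb2 went from 1.27 ± 0.296 to 77.9 ± 29.0 CPM. Its difference of -3.38 ± 0.71 (adjusted p = 0.0176) was no longer called without naive KO replicate 1 (0.136) or 3 (0.123), or without any 1 naive WT library (0.0581 to 0.0672), nor with limma-voom (0.0775) or no filter on low counts (0.0752).

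Of the Th1 genes, Tbx21, which encodes T-bet, was induced. It went from 0.577, 0.333 and 0.346 to 126, 139 and 138 CPM (8.29 ± 0.16, adjusted p = 1.21e-17), and in WT by 8.23, with an interval of the difference of -0.99 to 1.12, a wide interval at naive levels under 1 CPM. Stat4 (chr1:51987106-52107189), the transcription factor of IL-12 signalling, instead fell, from 108, 102 and 106 to 48.2, 45.00 and 50.3 CPM (-1.14 ± 0.08), where it rose in WT (1.09). Over the 19 lineage transcription factors 7 rose (36.8%, against 42.3% of all genes tested) and 10 fell (52.6%, against 39.8%). Bhlhe40 rose from 1.04, 0.887 and 0.231 to 129.8, 121 and 131 CPM (7.44), and Zeb2 from 0.115, 0 and 0 to 13.00, 11.6 and 11.3 CPM.

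Tested cytokine and effector genes mostly rose. Of 30 listed members 21 had enough counts to be tested. Of these 18 rose and 3 fell, with a median of 4.33 in KO and 6.65 in WT. Members near 0 in naive cells pass that filter only through their activated level, so the count and the medians follow in part from the filter. Il2 was at 0.115, 0.111 and 0.115 CPM, which is 1 count per naive KO library, and reached 142, 150.4 and 142 CPM (10.16 ± 0.19), with a difference from WT of -2.42 that was not called (adjusted p = 0.388). Tnfsf11, the gene of RANKL, went from 2.31, 3.10 and 3.46 to 193, 218 and 206 CPM (6.11). Prf1, the gene of perforin (-5.66), Ltb, of lymphotoxin beta (-1.51), and Gzmc (-2.67) fell. The loss of Ltb was smaller than in WT (difference 1.5 ± 0.14, adjusted p = 5.88e-06), and that of Prf1 larger (-1.24, adjusted p = 0.018). The Prf1 difference was not called with limma-voom (0.119) or without activated KO replicate 2 (0.0913) or 3 (0.0534) or activated WT replicate 1 (0.0805).

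In 40 genes every naive KO library held 0 counts and the activated KO mean was at least 5 CPM. Folds for these are lower bounds against 3 counts over the group and cover counting error only. Ccl3 (chr11:83647843-83649378), a chemokine gene, had 951, 936 and 915 counts in the activated KO libraries and was at least 720-fold higher (82.0 ± 6.18 CPM, SD). Ccl4, a related chemokine gene, was at least 443-fold higher, with 595, 568 and 563 counts. The cystathionine gamma-lyase gene Cth, of cysteine synthesis, was at least 448-fold higher with 741, 503 and 520 counts. Dnah7a, an axonemal dynein gene, was at least 662-fold higher, Igfbp7 at least 384-fold and Serpina3f at least 368-fold. Ifng, the Th1 cytokine, had 127, 74 and 84 counts and was at least 72.1-fold higher.

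For genes near 0 in naive cells of both genotypes the interaction has little power. Gzmb, the granzyme B gene, named here after its values were seen, held 0 counts in all naive KO libraries and 135, 58 and 54 counts in the activated ones (7.0 ± 3.16 CPM), against 547 ± 404 CPM in activated WT cells. Its interaction had an adjusted p of 1. Activated KO replicate 1 was the highest of its group for Gzmb, Ifng and Cth. Only Cd200r3, a receptor gene, and a predicted gene model went from at least 5 CPM to 0 counts in every activated KO library. Cd200r3 held 42, 58 and 38 counts in naive KO and was at least 59.7-fold lower. Without naive KO replicate 2 such genes numbered 1, and without activated KO replicate 1, 2 or 3 they numbered 6, 5 and 4.

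The largest falls of other genes were near-complete in every library. Lrrc75b went from 46.5, 29.8 and 22.9 to 0, 0 and 0.0926 CPM, Cd7, a T cell surface glycoprotein, from 21.1, 30.7 and 28.6 to 0.0788, 0.0922 and 0 CPM, and Slc16a5, a monocarboxylate transporter, from 55.8, 48.01 and 51.99 to 0.394, 0.184 and 0.0926 CPM. None of these 3 was called different from WT.

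Survival genes and interferon targets moved in both directions. Of 20 apoptosis and survival genes 10 rose (50%) and 6 fell (30%), near the shares of all genes tested (42.3% and 39.8%). Bcl2l1, the gene of the survival factor BCL-XL, went from 18.7, 18.2 and 17.4 to 383, 395 and 413 CPM (4.45 ± 0.10, WT 4.36), while Mcl1, a related factor, fell (-0.90). Among 39 interferon-stimulated genes 13 rose (33.3%) and 8 fell (20.5%), both below those shares, and 18 were not called. Gbp2, a guanylate-binding protein gene, rose from 100.2, 91.8 and 93.8 to 1045, 1287 and 1384 CPM, and Oas2, of the RNA-sensing oligoadenylate synthetases, fell from 31.04, 24.5 and 33.4 to 2.44, 0.83 and 1.20 CPM. Socs2, a feedback inhibitor of cytokine signals, went from 0.231, 0.222 and 0 to 108, 112 and 118 CPM, and Socs3 from 116, 76.4 and 102 to 5.04, 5.53 and 3.98 CPM, a larger fall than in WT (-2.18, adjusted p = 0.0428). The Socs3 difference was not called without a filter on low counts (0.0686) or in 9 of the 12 fits that leave out a library (0.0513 to 0.128), the exceptions being naive KO replicate 2 and activated WT replicates 1 and 3.

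**Figure D4:**
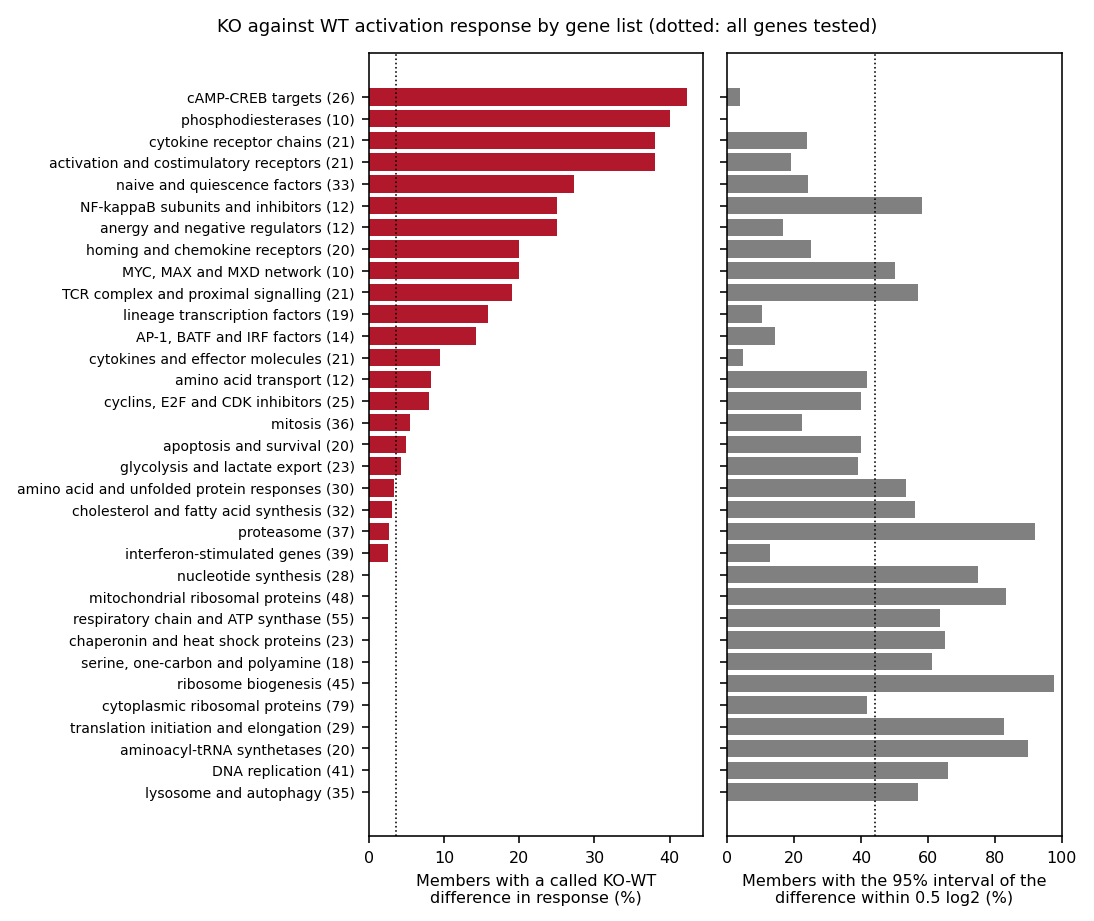
Share of the tested members of each list (number in brackets, lists of at least 10) with a called difference between the KO and WT response (left, %) and with the 95% interval of that difference within 0.5 log2 (right, %). Dotted lines are the shares of all 11980 genes (3.7% and 44.3%). The cAMP-CREB targets stand at 42.3% on the left, and ribosome biogenesis at 97.8% on the right. Lists can share members, and Pde3b, Pde4b and Pde4d count in both the cAMP-CREB and the phosphodiesterase list.

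Markers of other cells moved with activation as follows, and their part in the results was not tested. The summed level of 7 NK cell genes was 15.6 to 28.9 CPM in the naive and 161 to 208 CPM in the activated KO libraries. That rise lay in Eomes (7.38, 10.8 and 11.5 to 152, 128 and 114 CPM) and Nkg7, which activated T cells also express, while Ncr1, Klrb1b and Klra8 were at 0 in the activated KO libraries. The 15 myeloid and dendritic genes summed to 10.7 to 13.7 CPM in the naive and 45.6 to 68.8 CPM in the activated libraries, nearly all of the latter Mpeg1 (64.8, 40.5 and 46.2 CPM in the activated libraries), with Csf1r and S100a8 at or near 0. The 12 B cell genes, mostly Ighm, summed to 320.1 to 333 CPM in the naive and 164 to 192 CPM in the activated libraries. The erythroid genes summed to 7.03 to 15.6 CPM in the naive and 0.0788 to 0.369 CPM in the activated libraries. Of the 8 MHC class II genes 4 rose (50%, against 42.3% of all genes tested) and 2 fell (25%, against 39.8%). Their sum was 109.6 to 149.99 CPM in the naive and 292 to 319.98 CPM in the activated libraries, led by the invariant chain gene Cd74 (14.4, 13.3 and 24.7 to 242, 236 and 257 CPM).

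In 28 genes the KO response was called lower and the WT response called higher, and all 28 passed the interaction test. In a further 10 the KO response was called higher and the WT response lower, of which 6 passed. Ramp3 (chr11:6658506-6677478), which encodes a co-receptor of calcitonin-family receptors, fell from 12.6, 14.4 and 13.3 to 0.63, 0.0922 and 0.278 CPM in KO (-5.22 ± 0.28) and rose from 15.5 ± 2.0 to 33.5 ± 4.75 CPM in WT. The difference was -6.33 ± 0.32 (adjusted p = 1.49e-09). Ccr7 (chr11:99144199-99155077), the lymph node homing receptor, went from 718, 715 and 718 to 241, 228 and 233 CPM in KO (-1.61 ± 0.07) and from 725 ± 69.4 to 1351 ± 63.4 CPM in WT, with a difference of -2.51 ± 0.10 (adjusted p = 1.08e-10). For both genes the KO libraries of the states did not overlap. Stat4 differed by -2.23 ± 0.11 (adjusted p = 1.49e-09). Gpr65, an acid-sensing receptor that raises cyclic AMP, went from 57.7, 54.9 and 58.7 to 15.3, 11.5 and 12.2 CPM in KO (-2.13, WT 0.72).

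In the 6 called genes that rose in KO and fell in WT, the KO rise was 0.28 (Ripk3) to 1.10 (Tcf7l1). Tcf7l1, a T cell factor family member, went from 1.38, 0.776 and 1.73 to 2.05, 3.69 and 2.69 CPM (1.10 ± 0.34), against -1.11 ± 0.36 in WT. The difference of 2.21 (adjusted p = 0.0149) was not called without activated KO replicate 2 (0.0545). Tmem154, a membrane protein gene, went from 60.00, 49.00 and 51.3 to 86.1, 85.5 and 74.3 CPM (0.62 ± 0.09), against -0.66 ± 0.09 in WT (adjusted p of the difference 1.01e-05). Scly, selenocysteine lyase, rose from 25.2, 20.8 and 21.4 to 32.8, 31.9 and 37.1 CPM (0.60, WT -0.31), and the kinesin gene Kif13b changed by 0.43 (WT -0.43). Ripk3, of necroptosis, changed by 0.28 (WT -0.19). Its difference lost the call in 8 of the 12 fits that leave out a library (adjusted p 0.0502 to 0.11), the exceptions being naive WT replicates 1 and 3, activated WT replicate 2 and naive KO replicate 2. Slc44a1 lost its rise in KO without naive KO replicate 1 (adjusted p = 0.0885) or activated KO replicate 1 (0.0563).

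**Figure D5:**
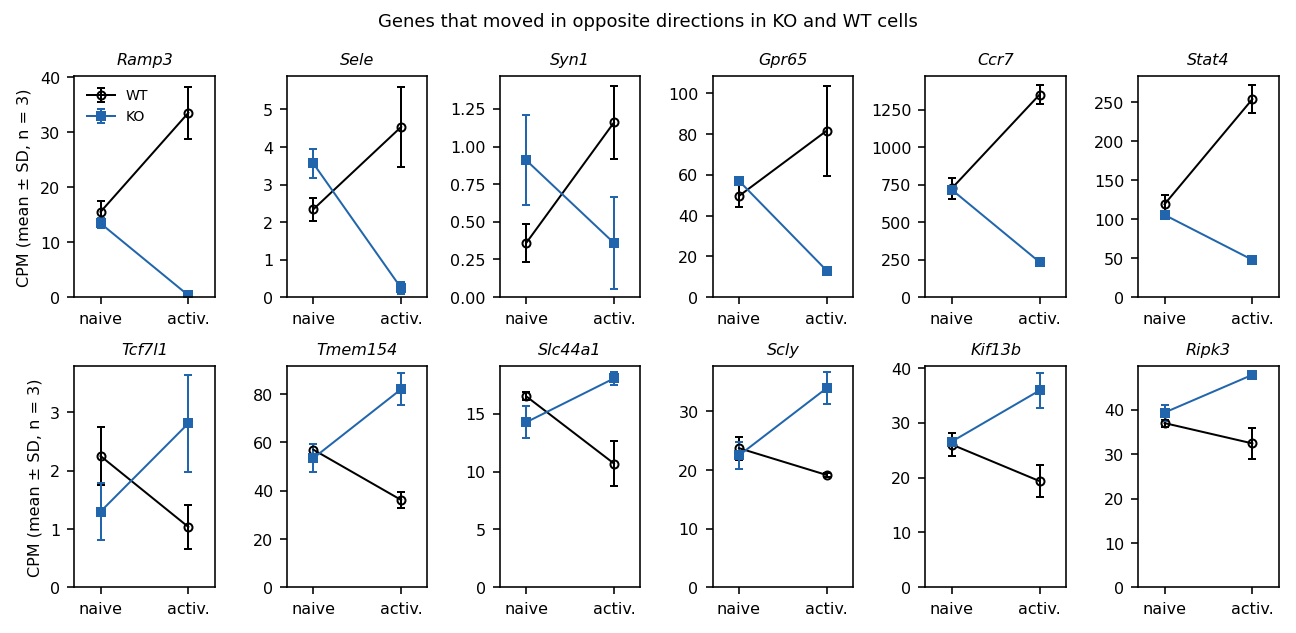
Mean CPM ± SD (n = 3 libraries) in naive and activated cells of WT (open circles) and KO (filled squares) for the 6 genes with the largest differences in each direction among those moving oppositely. The top row falls in KO and rises in WT, and the bottom row the reverse, with each axis from 0.

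Among genes that changed in KO and averaged at least 5 CPM in a group, the most negative differences from WT were in Perp, Ramp3, Smim3, Ntrk3, Tent5a, Il12rb2, Dusp4 and Cdkn1a. Tent5a, a poly(A) polymerase gene, fell from 102, 106 and 91.4 to 2.84, 2.67 and 2.78 CPM in KO, against 92.6 ± 4.49 to 64.9 ± 18.4 CPM in WT (-4.66 ± 0.26, adjusted p = 1.77e-07). Ntrk3, a neurotrophin receptor gene, fell from 18.1, 16.2 and 13.9 to 0, 0.369 and 0.926 CPM in KO, with a WT change of 0.01. Perp, a target of p53, reached 2.91, 3.14 and 3.24 CPM in KO and 73.6 ± 6.26 CPM in WT. Its difference of -7.41 (adjusted p = 0.0291) was -4.57 without naive KO replicate 1 (adjusted p = 1) and lost the call without activated KO replicate 2 (0.0519) or with the replicate block (0.0643). The call for Smim3 was lost without naive KO replicate 2 (0.059) or 3 (0.106), or naive WT replicate 1 (0.0602) or 2 (0.0624).

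Responses more positive in KO were led by Olfml2a, a gene of an extracellular matrix protein. It went from 0, 0 and 0.115 to 15.05, 16.2 and 14.7 CPM in KO (8.25 ± 0.41) and from 0.222 ± 0.0407 to 3.16 ± 0.833 CPM in WT, a difference of 4.47 ± 1.0 (adjusted p = 0.0148). Il18r1, the IL-18 receptor chain, fell in both genotypes, with log2 fold changes of -2.11 in KO and -3.73 in WT (difference 1.61 ± 0.18). In the activated KO libraries it stayed at 21.1, 19.8 and 18.2 CPM, and in WT it stood at 7.43 ± 0.869 CPM. Ramp1, a co-receptor like Ramp3, changed by -2.35 in KO and -4.02 in WT (adjusted p of the difference 0.000615). Pdk2, a kinase that restrains pyruvate oxidation, went from 11.2, 10.6 and 14.1 to 10.3, 9.31 and 8.34 CPM in KO, groups that did not overlap (-0.36), and changed by -2.49 in WT. The call in KO was lost without naive KO replicate 3 (adjusted p = 0.18), activated KO replicate 2 (0.0645) or activated KO replicate 3 (0.119), and with DESeq2 (0.0726) or no filter on low counts (0.056). The difference of 2.14 from WT had an adjusted p of 1.03e-05.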

How the data were processed

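RNA-seq counts per gene were analysed in 12 libraries (naive and activated, KO and WT, 3 each). The authors deposited whole-number counts without scaling. The genome build is mm10 per the submitters' processing notes, the aligner and counter are not given in the sources used here, and neither is whether counting used strand, so reads of overlapping and antisense genes cannot be told apart. Libraries were made from total RNA with a kit for Illumina sequencing, per the labels' protocols. Features without a symbol (0.128% to 0.159% of counts) were left out.

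Genes kept by filterByExpr were fitted with a mean per group in the 12 libraries, after TMM scaling, by the robust quasi-likelihood test of edgeR 4.0.16 (R 4.3.3), with Benjamini-Hochberg adjustment at 0.05. Samples were grouped by the genotype and state in the labels. Counts for 11980 genes were simulated with 200 changed. With no other gene changed by activation, the KO comparison recovered 87% of 2-fold and 94% of 4-fold changes (13 false calls in 11492). That setting is unlike these data, in which 82.1% of genes changed. In a separate simulation with the WT response in both genotypes, the interaction recovered 67% and 84% (9 in 11622). Replicate pairs differed by more than counting noise. Naive and activated libraries of the same genotype and number deviated together (r of 0.397, 0.198 and 0.148 in KO and 0.287, 0.162 and 0.111 in WT). Unlike numbers could do so as much (naive 2 with activated 3, 0.173 in KO and 0.126 in WT). Only number 1 stood apart, and it did so between genotypes too (0.495 in naive and 0.614 in activated libraries). These values do not settle whether the numbers pair the libraries, and the labels do not say. The settings tried besides were scaling by RLE or upper quartile, 2 other filters, DESeq2 1.42.0, limma-voom (limma 3.58.1), FDR 0.01, a minimum change of 1 log2, replicate blocks, KO libraries alone and leaving out each library.

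Members and gene lists were chosen with earlier results of these data known. Named genes are 12 core genes, the 10 largest changes in each direction (at least 5 CPM in the higher group, no overlap), the 3 members of each list with the smallest p, up to 3 members against a list's direction, the 8 largest interaction changes in each direction, the 6 largest opposite changes in each direction and the 6 highest genes switched on or off, leaving out predicted genes, receptor segments and sex-linked genes. Other genes given with values (the promoter genes and Gzmb) were picked after their values were seen. Promoters and gene positions are RefSeq's for GRCm38.p6, where 23889 of 25865 symbols were found.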

Additional observations from a re-analysis of the deposited data

Results flagged for a closer look

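The following genes had an activation response that differed between KO and WT by the interaction test (KO response minus WT response, log2, edgeR adjusted p under 0.05). The most negative values were -7.41 for Perp, -6.33 for Ramp3, -5.60 for Smim3, -5.27 for Ntrk3, -4.82 for Sele and -4.66 for Tent5a. They were followed by Il12rb2 at -3.38, Dusp4 at -3.21, Cdkn1a at -3.11, Syn1 at -2.89, Gpr65 at -2.84, Ccr7 at -2.51, Stat4 at -2.23, Crem at -1.79, Prkaca at -1.58 and Myc at -0.50. Among receptors, cytokines and their regulators the values were -1.92 for Ctla4, -1.18 for Tnfrsf4, -1.24 for Prf1, -2.18 for Socs3, -0.95 for Il2rb and -0.55 for Tgfbr2. Among phosphodiesterases and phosphatases they were -2.46 for Pde4d, -1.45 for Pde3b, -1.2 for Pde4b, -1.28 for Dusp5 and -0.83 for Dusp1. Transcription factors and the homing receptor gene S1pr1 had -2.16 for Satb1, -1.21 for Irf4, -1.21 for Nr4a3, -1.0 for Rel, -0.81 for Nfkb1, -0.48 for Ets1 and -1.0 for S1pr1.

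The positive values were led by Olfml2a at 4.47, Kifc3 at 2.29, Tcf7l1 at 2.21 and Pdk2 at 2.14. Palm3 was at 1.71, Ramp1 at 1.68, Il18r1 at 1.61, Ift74 at 1.59, Ccdc30 at 1.53 and Tmem154 at 1.28. Slc44a1 was at 0.97, Scly at 0.90, Kif13b at 0.86 and Ripk3 at 0.47. Ltb was at 1.5, Il6ra at 0.71 and Itgb7 at 0.35.

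Some of these rest on few counts or single libraries. Syn1, a synaptic vesicle gene, stayed under 2 CPM in every KO library (1.15, 0.998 and 0.576 CPM naive, 0.709, 0.184 and 0.185 CPM activated). Its difference was not called without naive KO replicate 1 (adjusted p = 0.0931) or 2 (0.0729), activated KO replicate 2 (0.0941) or 3 (0.0917), naive WT replicate 1 (0.0886) or activated WT replicate 3 (0.0777). Palm3 lost the call without naive KO replicate 1 (0.0512) or 2 (0.0546), activated KO replicate 1 (0.0836) or 2 (0.0904), or activated WT replicate 1 (0.0748) or 3 (0.0962). Palm3 also lost it with limma-voom (0.11). Ccdc30 lost it without activated WT replicate 2 (0.0504).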

How the results depend on the processing

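The count of genes changed in KO was 9598 to 10046 when single libraries were left out (4947 to 5187 higher, 4634 to 4859 lower), and 9682 with DESeq2, 9866 with limma-voom and 9704 in the KO libraries alone. A minimum change of 1 log2 left 5450 (2968 higher, 2482 lower) in KO and 5602 in WT. The interaction count was 290 to 472 with single libraries left out (78 to 182 more positive, 212 to 315 more negative), 217 at FDR 0.01 (51 and 166), 152 with at least 1 log2 (41 and 111), 560 with DESeq2 and 433 with limma-voom. Bounded genes were 8887 with a bound of 1 log2. Genes switched on were 89 with up to 1 count allowed in a silent library and 166 with at least 1 CPM, and genes switched off 9 and 19 (1 to 6 with single libraries left out).

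With the replicate block within genotype, KO calls were 9885, of which 9775 were shared with the fit without it, and interaction calls 519, of which 406 were shared. Across genotypes the block gave 9946 and 578. Among named genes the block within genotype changed only the calls given for Cd69, Pde5a, Perp, Il12rb1 and Itgb7.

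Values that changed sign were all uncalled. The interaction of Tbx21 was -0.0025 with limma-voom, and -0.457 to 0.355 with single libraries left out (below 0 without naive KO replicate 2 or 3 or naive WT replicate 1). That of Prkacb was -0.0216 (without naive WT replicate 2) to 0.0855, and the KO change of Crem -0.0137 (without activated KO replicate 1) to 0.164. The interaction of Ncl was 0.03001 under upper-quartile scaling and -0.0372 to 0.0119 with single libraries left out (above 0 without naive KO replicate 2, activated KO replicate 1 or naive WT replicate 1). The cause was not tested. Depth limits the interaction for genes near 0 counts in naive cells.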

Other observations

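Lysosome and autophagy genes mostly fell in activated KO cells. Of 35 members 25 fell and 3 rose, with a median of -0.70 (WT -0.69), no called difference from WT and 20 bounded within 0.5 log2. Rb1cc1, an autophagy initiation factor, went from 88.3, 99.8 and 98.6 to 25.2, 29.7 and 26.2 CPM (-1.82 ± 0.08). The members that rose were Gabarapl1, an ATG8-family gene (4.26), the cathepsin gene Ctsz (1.59) and Tfe3, a factor of lysosome genes (0.52).

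Amino acid and unfolded protein response genes mostly rose. Of 30 members 23 rose, among them the folding factors of the endoplasmic reticulum Sdf2l1 (14.5, 15.1 and 14.1 to 89.6, 92.9 and 93.01 CPM, 2.66 ± 0.08), Pdia6 (1.54 ± 0.07) and Canx (1.18 ± 0.06). Among the 6 that fell were Ddit4, an inhibitor of mTORC1 (799, 694 and 838 to 139, 117 and 131 CPM, -2.59 ± 0.14), and the co-chaperone genes Dnajb9 (-2.22) and Dnajc3 (-1.05). None of these 6 was called different from WT. Of 8 MAP kinase phosphatase genes 4 rose (50%, against 42.3% of all genes tested) and 2 fell (25%, against 39.8%). Those that fell were Dusp7 (-2.02) and Dusp10 (-2.48), and 3 members were more negative in KO than in WT. Of 7 tested regulatory T cell markers 6 rose, with a median of 1.94 (WT 2.83), and the list summed to 97.8 to 105 CPM in the naive and 1017 to 1051 CPM in the activated KO libraries. Most of the latter sum was Il2ra, which activated T cells also express. The member that fell was Foxp3, the factor that defines these cells, from 4.85, 5.54 and 5.30 to 1.02, 1.66 and 0.926 CPM (-2.12, WT -1.95). The part of such cells in the results was not tested.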
